A study of Mus musculus with 16 samples.

Results

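The genes described here are 46 transcripts of hepatic stellate cells and of the extracellular matrix, followed in whole mouse liver with and without the nuclear receptor LRH-1. They were listed by symbol, with earlier results of these data known, and each was read from the probe set annotated to that gene alone, or from the brightest such probe set where there were several. By this rule 45 of the 46 were measured among 19237 genes, and fibrillin 1 (Fbn1) had no such probe set. They fall into 5 roles, which are stellate cell identity (7 genes), activation and growth factor signalling (11 genes), collagen chains (13 genes), proteoglycans and elastic fibre proteins (7 genes, 6 measured), and cross-linking enzymes, matrix proteases and their inhibitors (8 genes).

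Total RNA came from 16 livers, 8 labelled LRH-1 hep +/+ (called control here) and 8 labelled LRH-1 hep-/- (called knockout), each hybridised to 1 Affymetrix array. Mice of both genotypes were 17 to 19 weeks old, fed ad libitum, and their livers were taken at 7 am. The notation marks a deletion in hepatocytes, whereas the genes followed here are known mainly from other cells of the liver. The sources used here do not give the Cre driver, the deleted exons, the strain, the sex, or any scan or extraction batch. The labels call the livers of a genotype biological replicates.

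Hepatic stellate cells lie between the hepatocytes and the sinusoidal endothelium and store vitamin A as retinyl esters. On injury they are known to lose this store, to take on contractile and migratory features under platelet-derived growth factor (PDGF) and transforming growth factor beta (TGF-beta), and to lay down fibrillar collagen. Proteoglycans, elastic fibre proteins and cross-linking enzymes organise that matrix, and metalloproteinases and their tissue inhibitors set its turnover. Portal fibroblasts, vascular smooth muscle and mesothelium also express many of these genes, so the list marks no single cell type. In RNA from whole liver, a change in the number of cells and a change in transcript per cell cannot be told apart.

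Values below are log2 probe set intensities, and a change is the knockout mean minus the control mean on that scale. A gene was said to have changed where limma gave an adjusted p under 0.05 (Benjamini-Hochberg adjustment over all 19237 genes). Nr5a2, the gene for LRH-1, averaged 8.66 ± 0.13 (SD, n = 8) in control and 7.78 ± 0.37 (SD, n = 8) in knockout livers, with no overlap between the genotypes. It fell by 0.88 ± 0.12 (SE; limma adjusted p = 4.5e-05), and an exact 2-sided permutation test of the 12870 divisions of the livers gave p = 0.000155, the smallest it can give. Hepatocyte markers were bright in every liver, with Alb (albumin) and Ttr (transthyretin) averaging 13.12 and 12.76 in both genotypes.

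Some arrays also held transcripts of tissue that is not liver. Of 8 skeletal muscle genes, the summed linear intensity was 7107 on the array of control 4 and 5078 on that of knockout 5, against 238 to 347 on the other 14. The mean log2 level of 9 adipocyte genes, brown fat genes such as Ucp1 included, was 7.16 in control 5, 6.92 in knockout 1 and 5.85 in control 8, against 4.54 to 5.28 on the other 13 arrays. By summed linear intensity control 8 (663) did not stand apart, since control 4 (816) and knockout 5 (718), the arrays with muscle transcripts, were higher. In control 4 and knockout 5 the list gene Cox8b stood at 9.14 and 8.77, against 6.66 in control 8. Each other gene of the list, such as Adipoq (3.44, 3.32 and 5.04), was higher in control 8 than in either. By summed intensity the place of control 8 thus depends on Cox8b. Both lists were chosen after the values were seen, and the genes below that did not pass without the 2, the 3 or all 5 of these arrays are given with those values.

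In the knockout 19 of the 45 measured genes rose (42.2%) and 1 fell (2.22%), where 5.49% of all genes tested rose and 3.2% fell (8.7% either way). The median change of the 45 was 0.24, and that of all genes 0.002. The sign was positive for 42 genes and negative for Lrat, Hand2 and Col15a1, where it was positive for 9772 of all 19237 genes. With a change of at least 1.5-fold also required, 3 genes rose (Vim, Lum and Fbln1) and none fell, against 1.34% and 0.853% of all genes. Of the 25 genes that did not pass, 7 had an unadjusted p under 0.05 (limma). The share of all genes that did not pass with such a p was not counted, so this count has no background beside it. Without the 5 arrays named above, 13 of the 20 changed genes passed, and the changes of all 20 were 0.76 to 1.28 times those over all livers.

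The roles differed in how many members rose. Among activation genes 8 of 11 rose, with a median change of 0.38 over the group, and among proteoglycans and elastic fibre proteins 4 of 6 rose, with a median of 0.43. Of the collagen chains 3 of 13 rose (median 0.13), and of the cross-linking and protease group 3 of 8 (median 0.31). In the stellate identity group 1 of 7 rose and 1 fell, with a median of 0.06. No test was made of these differences between roles.

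**Figure D1:**
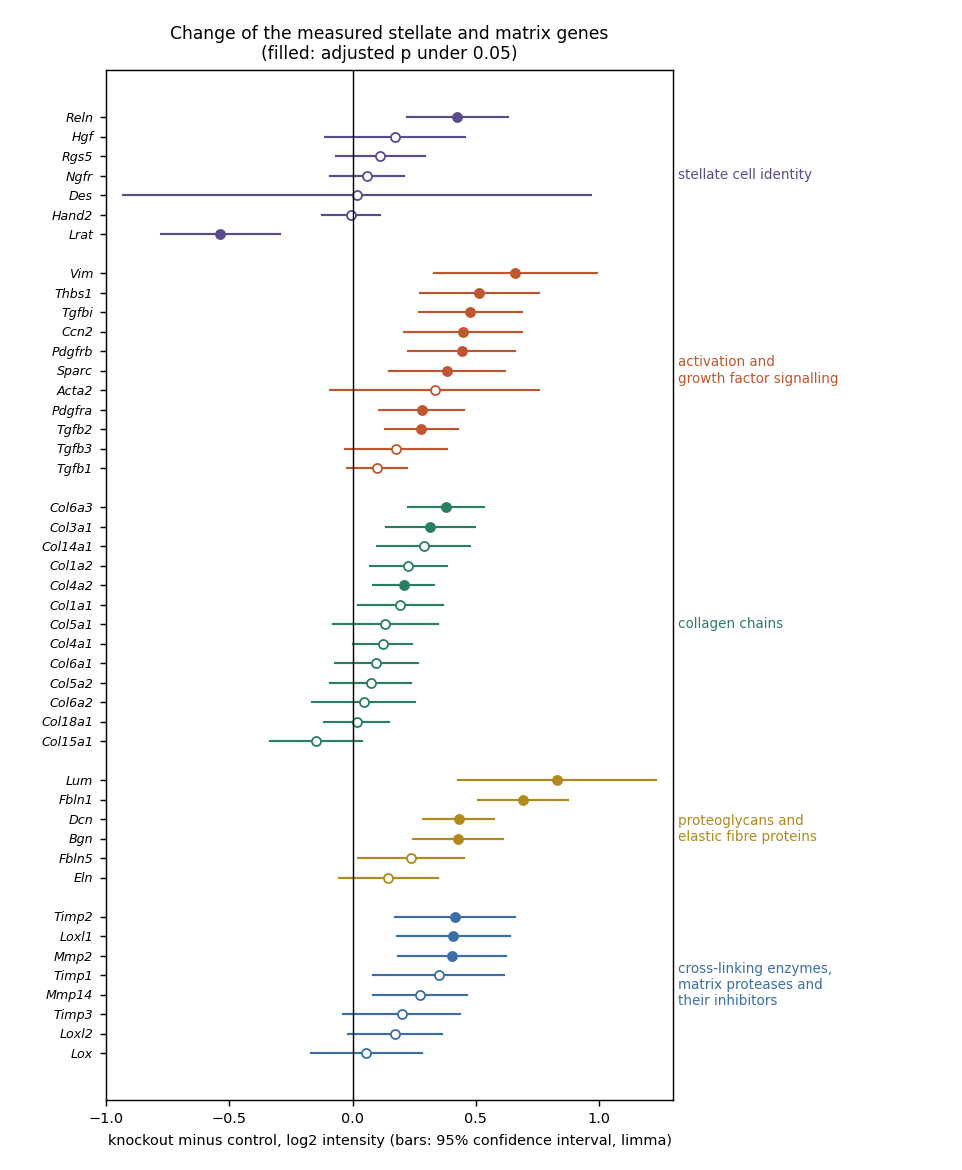
Difference between the genotype means (knockout minus control, log2 intensity, horizontal axis) of the 45 measured genes, grouped by role. Points are differences, bars are limma 95% confidence intervals, and filled points have an adjusted p under 0.05. Most filled points lie to the right of 0, and Lrat is the filled point to its left.

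The genotypes were fully separated for 2 of the 45 genes, Fbln1 and Tgfb2, where 1.69% of all genes were separated with the knockout higher. None was separated with the knockout lower, against 1.2% of all genes. Together with Lrat, the gene that fell, their sequences just upstream of transcription are shown as context for these changes. Each is the 250 bases before the annotated start (RefSeq, GRCm38.p6), written 5′ to 3′ on the strand of the gene: Lrat at chr3:82903975-82904224 (minus strand), Fbln1 at chr15:85205699-85205948 (plus strand) and Tgfb2 at chr1:186705990-186706239 (minus strand). Capitals mark a match to the motifs named after the sequences.
Lrat: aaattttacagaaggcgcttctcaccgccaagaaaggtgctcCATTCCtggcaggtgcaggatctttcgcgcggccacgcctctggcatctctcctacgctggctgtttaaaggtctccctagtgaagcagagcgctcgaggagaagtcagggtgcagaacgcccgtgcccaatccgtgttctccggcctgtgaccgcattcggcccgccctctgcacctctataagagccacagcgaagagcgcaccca
Fbln1: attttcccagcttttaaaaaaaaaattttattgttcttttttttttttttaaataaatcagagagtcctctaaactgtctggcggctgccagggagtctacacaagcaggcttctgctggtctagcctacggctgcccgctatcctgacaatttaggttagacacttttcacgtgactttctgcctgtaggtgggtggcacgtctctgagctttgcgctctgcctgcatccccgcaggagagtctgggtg
Tgfb2: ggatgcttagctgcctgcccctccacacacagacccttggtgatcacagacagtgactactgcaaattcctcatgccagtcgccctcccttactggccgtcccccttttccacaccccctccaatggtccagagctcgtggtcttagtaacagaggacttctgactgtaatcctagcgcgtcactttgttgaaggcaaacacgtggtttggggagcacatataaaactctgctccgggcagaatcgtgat
These windows were searched on both strands for CAAGGTCA, an element of the kind LRH-1 binds, for GGAATG, bound by TEAD factors, and for TGANTCA, bound by AP-1. None of the 3 motifs contains another. Of the 46 genes, 32 had such a window. These were counted as genes with a match in any of their windows, whereas the shares of all are shares of windows, so the 2 are not in the same unit. CAAGGTCA was in none of the 32 and in 1.33% of all 32851 RefSeq windows of this length. GGAATG was in 6 of the 32 (Acta2, Col18a1, Col3a1, Col6a2, Lrat and Timp1) and in 12.6% of all windows, and its match in Lrat, on the opposite strand, begins 208 bases before the start. TGANTCA was in 1 of the 32 (Col6a1) and in 6.75% of all. A match is a description of the letters, and its absence says nothing of binding elsewhere.

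Among stellate identity genes, the enzyme of retinol storage fell and reelin rose. Lrat encodes lecithin retinol acyltransferase, which makes the retinyl esters that stellate cells store. Its level was 7.26, 7.51 and 7.74 (lowest, median and highest) in control livers and 6.62, 6.87 and 7.62 in knockout livers. Knockout 4, at 7.62, lay among the controls, and the other 7 knockout livers lay below every control. The change was -0.54 ± 0.12 (SE; limma adjusted p = 0.00395), so that Lrat fell by 31.0%. Without all 5 arrays holding muscle or adipocyte transcripts it was -0.50 (limma adjusted p = 0.0885).

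Reln encodes reelin, a secreted glycoprotein that stellate cells make in liver. Control livers ranged from 8.03 to 8.49 with a median of 8.17, and knockout livers from 8.21 to 8.87 with a median of 8.67. In 6 knockout livers the level was above every control. Reln rose by 0.42 ± 0.10 (SE; limma adjusted p = 0.00646), in the opposite direction to Lrat.

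The other 5 identity genes did not pass the test. Hgf, hepatocyte growth factor, had medians of 7.00 in control and 7.09 in knockout livers (change 0.17 ± 0.14 SE, limma adjusted p = 0.634). Hand2, a transcription factor of stellate cells, differed by -0.01 ± 0.06, Ngfr, the low-affinity neurotrophin receptor, by 0.06 ± 0.07, and Rgs5, a pericyte regulator of G protein signalling, by 0.11 ± 0.09. Des encodes desmin, an intermediate filament of stellate cells and of all muscle, and its values divided by array rather than by genotype. It stood at 8.94 in control 4 and 8.56 in knockout 5, the arrays with skeletal muscle transcripts, and between 5.53 and 6.10 in the other 14 livers. Its change was 0.02 ± 0.45 over all livers and 0.07 ± 0.09 without those 2 arrays (limma adjusted p = 0.796). The sign of the Des change turned with each array centred on its median (-0.01).

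**Figure D2:**
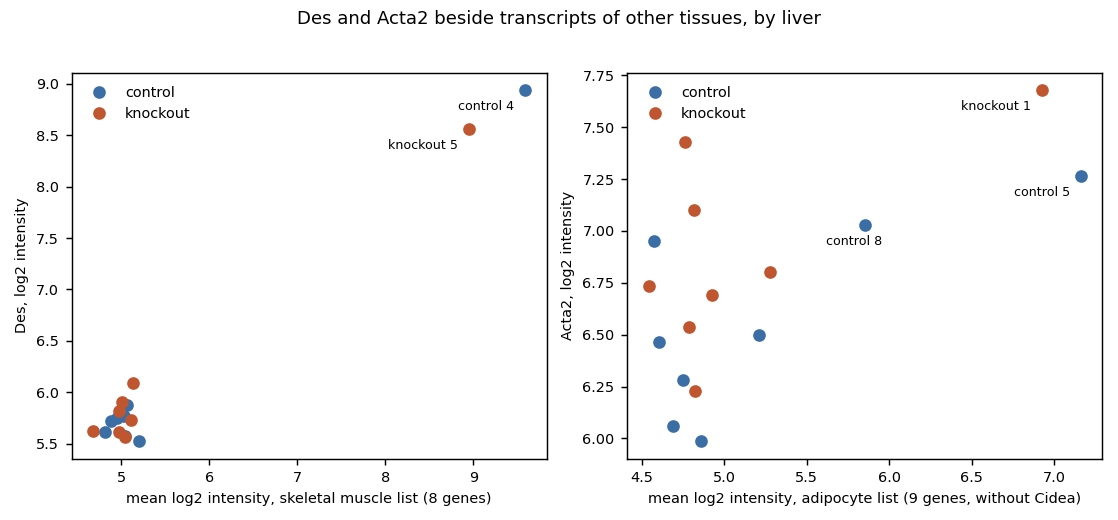
Desmin (left) and smooth muscle actin (right), log2 intensity on the vertical axes, against the mean log2 intensity of 8 skeletal muscle genes (left) and of 9 adipocyte genes (right), 1 point per liver. Control 4 and knockout 5 stand apart on the left at 8.94 and 8.56, and control 5, control 8 and knockout 1 on the right.

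In the activation group 8 of 11 genes rose, while Acta2, its best known marker, did not pass the test. Vim encodes vimentin, an intermediate filament of mesenchymal cells. Its level was 7.87, 8.16 and 8.90 (lowest, median and highest) in control and 8.35, 8.84 and 9.35 in knockout livers. The genotypes overlapped, with 3 knockout livers above every control. Vim rose 1.58-fold (0.66 ± 0.16 SE, limma adjusted p = 0.00945).

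Acta2 encodes smooth muscle alpha actin, the contractile protein of myofibroblasts and of vessel walls. It ranged from 5.99 to 7.26 (median 6.48) in control and from 6.23 to 7.68 (median 6.77) in knockout livers. The change was 0.33 ± 0.20 (SE; limma adjusted p = 0.465) with a 95% confidence interval of -0.09 to 0.76. The spread between livers was therefore too wide to tell a change of the size seen in Vim from none. Its highest values in each genotype came from control 5 (7.26) and knockout 1 (7.68), which held adipocyte transcripts, but knockout 8 (7.43) and control 7 (6.95), which did not stand apart for those, were also high. Without the 3 arrays holding those transcripts the change was 0.41 ± 0.18 (limma adjusted p = 0.242).

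Both PDGF receptors rose. Pdgfrb, the receptor by which stellate cells respond to PDGF-B, had values of 6.42, 6.58 and 6.92 (lowest, median and highest) in control and 6.75, 7.06 and 7.47 in knockout livers. In 6 knockout livers it was above every control, and the change was 0.44 ± 0.10 (SE; limma adjusted p = 0.00787). Pdgfra, its paralogue of fibroblasts, ran from 5.62 to 6.07 (median 5.76) in control and from 5.71 to 6.26 (median 6.13) in knockout livers. It exceeded every control in 5 knockout livers and rose by 0.28 ± 0.08 (limma adjusted p = 0.0372). The Pdgfra call was narrow: it was lost without any of 11 single livers (controls 1, 2, 3, 6, 7 and 8 and knockouts 1, 2, 4, 5 and 8), with limma adjusted p from 0.0523 to 0.0816. It was also lost without the 3 arrays holding adipocyte transcripts (0.25, limma adjusted p = 0.141) and without all 5 named above (0.27, 0.124).

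Of the 3 TGF-beta ligands, Tgfb2 passed the test. Its level lay between 4.90 and 5.10 (median 5.04) in control and between 5.11 and 5.59 (median 5.24) in knockout livers. Tgfb2 was dim, at percentile 38.9 of mean level among all genes. Every knockout liver was above every control, by 0.28 ± 0.07 on average (SE; limma adjusted p = 0.015), although the gap between the groups was small. Tgfb2 did not pass without the 3 arrays holding adipocyte transcripts (0.28, limma adjusted p = 0.0637) or without all 5 named above (0.25, 0.137). Tgfb1, the ligand best known in fibrosis, differed by 0.10 ± 0.06 (95% confidence interval -0.02 to 0.22, limma adjusted p = 0.428). Tgfb3 differed by 0.18 ± 0.10 (limma adjusted p = 0.41). Its highest values of each genotype, 5.76 in control 4 and 5.69 in knockout 5, were on the arrays with muscle transcripts. In no alternative did Tgfb3 pass (lowest limma adjusted p = 0.0541). Whether the 3 ligands differ in their change was not tested.

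Thbs1 encodes thrombospondin 1, which can release TGF-beta from its latent form. Its level was 5.08, 5.34 and 5.58 (lowest, median and highest) in control and 5.44, 5.78 and 6.54 in knockout livers, of which 7 exceeded every control, and the change was 0.51 ± 0.12 (SE; limma adjusted p = 0.00575). Tgfbi, a matrix adaptor protein induced by TGF-beta, ran from 7.83 to 8.41 (median 7.97) in control and from 8.11 to 8.74 (median 8.59) in knockout livers. In 6 knockout livers Tgfbi was above every control, and it rose by 0.48 ± 0.10 (limma adjusted p = 0.00323).

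Ccn2, connective tissue growth factor, is a secreted target of TGF-beta and of YAP signalling. It ranged from 6.53 to 7.35 (median 6.86) in control and from 6.83 to 7.63 (median 7.30) in knockout livers, with 4 knockout livers above every control, and rose by 0.45 ± 0.12 (SE; limma adjusted p = 0.0156). Without the 2 arrays holding muscle transcripts its change was 0.40 (limma adjusted p = 0.0528). Sparc, osteonectin, binds collagen outside the cell. Its medians were 8.83 and 9.27, only 2 knockout livers (range 9.01 to 9.54) exceeded every control (range 8.57 to 9.43), and the change was 0.38 ± 0.11 (limma adjusted p = 0.0374). Sparc lost its call without any of 10 single livers (controls 1, 2, 3, 6 and 7 and knockouts 1, 2, 4, 5 and 8), at limma adjusted p of 0.053 to 0.0822, and without the 2 arrays holding muscle transcripts (0.37, 0.069).

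**Figure D3:**
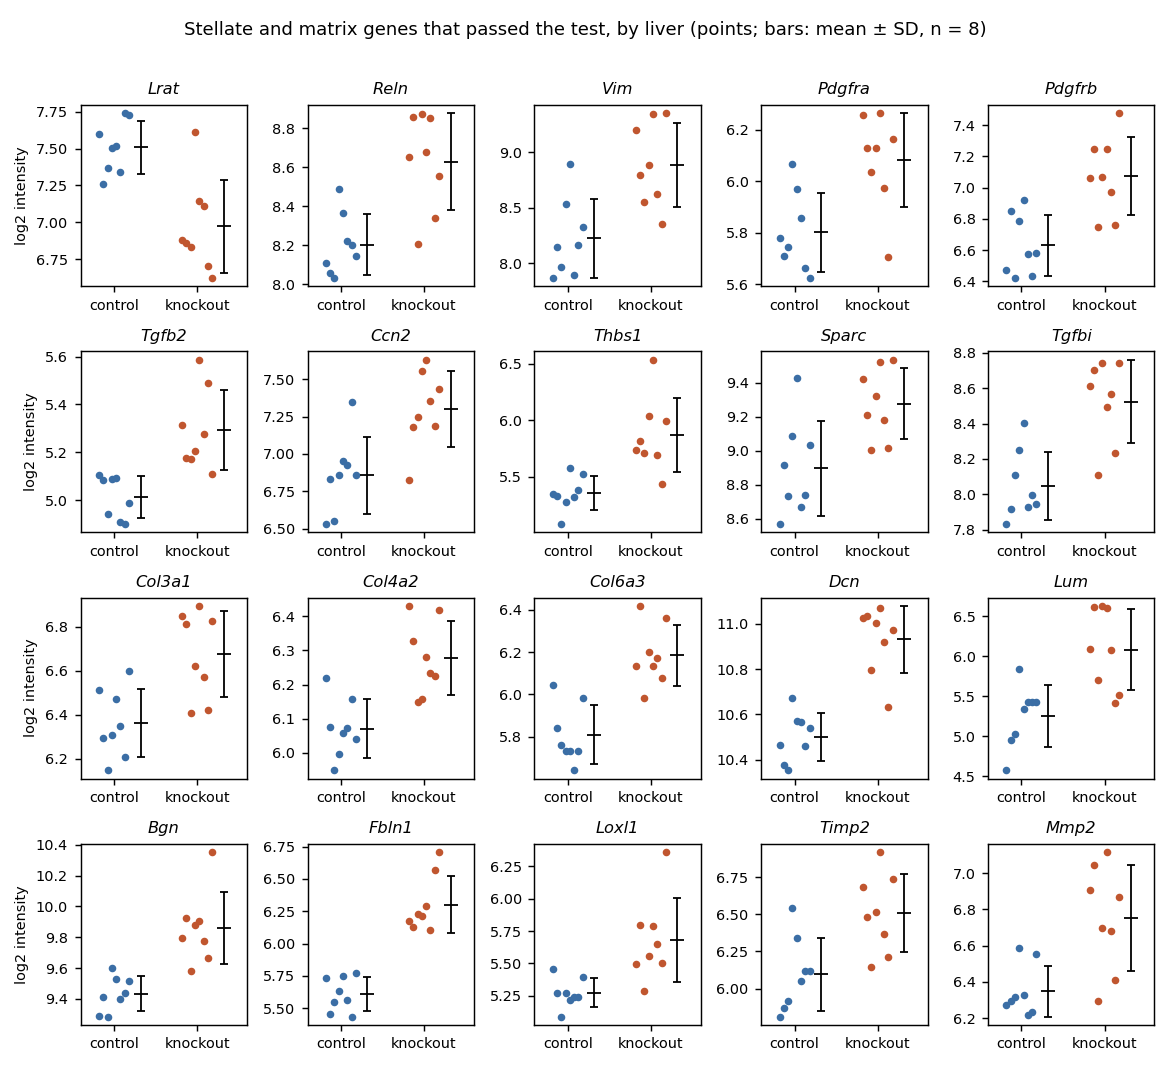
Log2 intensity (vertical axes) of the 20 genes that passed the test, 1 panel per gene with its own scale, by genotype. Points are livers and bars are mean ± SD (n = 8). Tgfb2 and Fbln1 show no overlap between the genotypes, and Lrat has 1 knockout liver at 7.62 among the controls.

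The collagens changed less than the proteoglycans in median, and the 3 chains that rose belong to types VI, III and IV. Col6a3, a chain of the beaded filaments of type VI collagen, was at 5.64, 5.75 and 6.05 (lowest, median and highest) in control and at 5.98, 6.15 and 6.42 in knockout livers. All but 1 knockout liver exceeded every control, and the change was 0.38 ± 0.07 (SE; limma adjusted p = 0.00163). The partner chains Col6a1 and Col6a2 differed by 0.10 ± 0.08 and 0.04 ± 0.10 and did not pass, and Col6a2 turned to -0.01 without the arrays holding muscle transcripts. Whether Col6a3 differed from its partners was not tested.

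Among fibrillar collagens, Col3a1, the chain of type III collagen, ran from 6.15 to 6.60 (median 6.33) in control and from 6.41 to 6.90 (median 6.72) in knockout livers. With 5 knockout livers above every control, it rose by 0.32 ± 0.09 (SE; limma adjusted p = 0.0233). The chains of type I collagen did not pass the adjusted threshold. Col1a1 had medians of 6.46 and 6.68 and a change of 0.19 ± 0.08 (95% confidence interval 0.02 to 0.37, limma adjusted p = 0.209), and Col1a2 medians of 6.47 and 6.74 and a change of 0.23 ± 0.07 (limma adjusted p = 0.0673). All 8 knockout livers lay above the control median for both chains. The type V chains Col5a1 and Col5a2 differed by 0.13 ± 0.10 and 0.07 ± 0.08. Col14a1, which binds the surface of collagen fibrils, differed by 0.29 ± 0.09 (limma adjusted p = 0.0542).

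Of the basement membrane chains, Col4a2 ranged from 5.95 to 6.22 (median 6.07) in control and from 6.15 to 6.43 (median 6.26) in knockout livers. In 6 knockout livers it was above every control, and it rose by 0.21 ± 0.06 (SE; limma adjusted p = 0.0335). Its partner Col4a1, whose annotated start on chromosome 8 lies 21 bases from that of Col4a2 on the opposite strand, differed by 0.12 ± 0.06 (limma adjusted p = 0.263). Col15a1 and Col18a1, collagens of the zone next to basement membranes, differed by -0.15 ± 0.09 and 0.02 ± 0.06, and the sign of Col18a1 turned with median centring (-0.01).

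Several collagen calls rested on small margins. Without single livers Col3a1 was lost in 5 cases (controls 3 and 7 and knockouts 1, 2 and 5, limma adjusted p 0.0516 to 0.0537) and Col4a2 in 10 (controls 2, 3, 4, 5, 6 and 8 and knockouts 1, 2, 5 and 8, 0.0516 to 0.0761), while Col1a2 passed without control 1, control 8 or knockout 4 (0.0317 to 0.0494) and Col14a1 without control 4, knockout 3 or knockout 7 (0.0169 to 0.048). Without the 2 arrays holding muscle transcripts or all 5 of those named above, Col6a3 was the 1 collagen chain that passed. Col3a1 then had limma adjusted p of 0.086 and 0.113, and Col4a2 of 0.0986 and 0.444, and Col4a2 did not pass without the 3 arrays holding adipocyte transcripts either (0.192).

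Co-variation between livers was measured for 3 pairs of collagen chains within each genotype. In the 8 control livers Col1a1 and Col1a2 had a Pearson r of 0.96 (exact permutation p = 0.000298, adjusted over 8 relations 0.00119) and a Spearman rho of 0.98. In the 8 knockout livers r was 0.96 (exact permutation p = 0.000446, adjusted 0.00119) and rho 0.93. Leaving out the 2 livers farthest from the median of Col1a1 gave 0.97 and 0.90. Col1a1 and Col3a1 had an r of 0.93 in control livers (exact permutation p = 0.00188, adjusted 0.00302) with a rho of 0.88 (exact permutation p = 0.00724), and 0.87 without the 2 farthest livers. In knockout livers their r was 0.70 (exact permutation p = 0.0592, adjusted 0.0619) with a rho of 0.57 (exact permutation p = 0.151), and 0.84 without the 2 farthest. For Col4a1 and Col4a2 the r of 0.79 in control livers (exact permutation p = 0.0202, adjusted 0.0269) dropped to 0.27 without 2 livers, controls 1 and 3, and so rested on them. In knockout livers r was 0.67 (exact permutation p = 0.0619, rho 0.57) and 0.23 without the 2 farthest.

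Col1a1 also followed the median log2 intensity of the whole array, which ran from 5.60 to 5.75 in control and from 5.61 to 5.76 in knockout livers. This relation was added after the data were seen. It had an r of 0.94 in control livers (exact permutation p = 2.48e-05, adjusted 0.000198, rho 1) and of 0.93 in knockout livers (exact permutation p = 0.000595, adjusted 0.00119, rho 0.98), and 0.88 and 0.93 without the 2 farthest livers. The part of the array median in the collagen relations was not tested.

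**Figure D4:**
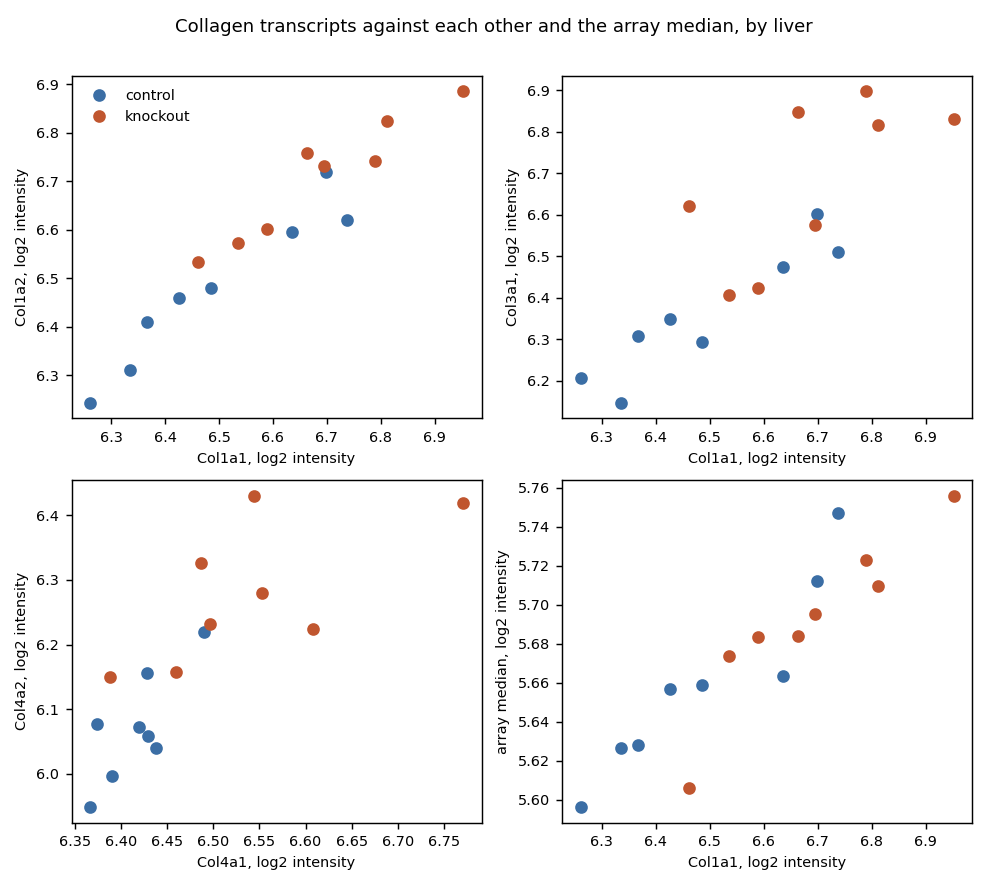
Collagen transcripts against each other and against the median of the array (log2 intensity on all axes), 1 point per liver. Col1a1 with Col1a2 lie close to a line in both genotypes (r 0.96 in each), Col4a1 with Col4a2 scatter more, and Col1a1 rises with the array median.

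The 4 genes of the proteoglycan and elastic fibre group that rose passed the test with any single liver left out. Dcn encodes decorin, a small leucine-rich proteoglycan that binds collagen fibrils and TGF-beta. Its level was 10.35, 10.50 and 10.67 (lowest, median and highest) in control and 10.63, 10.99 and 11.07 in knockout livers. Of the knockout livers 7 exceeded every control, and Dcn rose by 0.43 ± 0.07 (SE; limma adjusted p = 0.000231). Bgn, biglycan, its close relative, ran from 9.28 to 9.60 (median 9.42) in control and from 9.58 to 10.35 (median 9.84) in knockout livers, of which 7 were above every control. The change of Bgn was 0.43 ± 0.09 (limma adjusted p = 0.00264), close to that of Dcn.

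Lum encodes lumican, a keratan sulphate proteoglycan of collagen fibrils, and had the largest change of the 45 genes. It ranged from 4.58 to 5.84 (median 5.39) in control and from 5.42 to 6.63 (median 6.08) in knockout livers. The groups overlapped, with 5 knockout livers above every control, and Lum rose 1.78-fold (0.83 ± 0.19 SE, limma adjusted p = 0.00714).

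Fbln1, fibulin 1, is a glycoprotein of elastic fibres and basement membranes, and had the smallest adjusted p of the 45. Control livers lay between 5.44 and 5.77 (median 5.60) and knockout livers between 6.11 and 6.71 (median 6.22). No knockout liver reached down to the highest control, and the change was 1.61-fold (0.69 ± 0.09 SE, limma adjusted p = 1.52e-05). The upstream window of Fbln1 shown above held none of the motifs searched. Fbln5, which helps assemble elastic fibres, differed by 0.24 ± 0.10 (limma adjusted p = 0.221), and Eln, elastin itself, by 0.15 ± 0.10 (limma adjusted p = 0.532).

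In the cross-linking and turnover group 1 enzyme of each kind and 1 inhibitor rose. Loxl1, a lysyl oxidase that cross-links elastin, was at 5.09, 5.26 and 5.46 (lowest, median and highest) in control and 5.29, 5.60 and 6.36 in knockout livers. In 7 knockout livers it was above every control, and it rose by 0.41 ± 0.11 (SE; limma adjusted p = 0.0215). The related Lox and Loxl2 differed by 0.06 ± 0.11 and 0.17 ± 0.09 and did not pass. Lox was the dimmest of the measured stellate and matrix genes, at percentile 18.2 of mean level among all genes. A second probe set of Loxl2 gave -0.08, the opposite sign.

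Mmp2, gelatinase A, ran from 6.22 to 6.58 (median 6.30) in control and from 6.30 to 7.12 (median 6.78) in knockout livers, with 6 above every control. It rose by 0.40 ± 0.11 (SE; limma adjusted p = 0.0172). Mmp14, the membrane protease that activates pro-MMP2, differed by 0.27 ± 0.09 (limma adjusted p = 0.0721). Timp2, an inhibitor that also takes part in that activation, ranged from 5.81 to 6.54 (median 6.08) in control and from 6.14 to 6.92 (median 6.50) in knockout livers. It rose by 0.41 ± 0.12 (limma adjusted p = 0.0271), with 3 knockout livers above every control.

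Timp1, the inhibitor most used as a fibrosis marker, was dim on these arrays and differed by 0.35 ± 0.13 (limma adjusted p = 0.108). Timp3, which is held in the matrix, differed by 0.20 ± 0.11 (limma adjusted p = 0.414). Without the 3 arrays holding adipocyte transcripts Loxl1 (limma adjusted p = 0.0535), Mmp2 (0.0594) and Timp2 (0.069) did not pass. Without all 5 named above Timp2 passed (0.0194) and Loxl1 (0.142) and Mmp2 (0.0725) did not, and Loxl1 did not pass without the 2 arrays holding muscle transcripts (0.0627). The Timp2 call was also lost without any of 6 single livers (controls 1, 2, 3 and 6 and knockouts 1 and 5), at limma adjusted p of 0.0504 to 0.0604.

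Other genes of the same pathways were counted from lists chosen with earlier results of these data known. Of 16 other stellate cell markers 3 rose (18.75%) and 1 fell (6.25%), with a median change of -0.02. Among all genes tested 5.49% rose and 3.2% fell, the shares to set beside this and the list counts that follow. Cxcl12, a chemokine of stellate and endothelial cells, fell from 8.76, 9.01 and 9.38 (lowest, median and highest) in control to 8.18, 8.35 and 8.54 in knockout livers. The groups did not overlap (change -0.71 ± 0.09 SE, limma adjusted p = 7.85e-06). Steap4, a metalloreductase, rose by 0.69 ± 0.14 (limma adjusted p = 0.0022), Adamtsl2, a matrix protein that regulates TGF-beta, by 0.42 ± 0.11 (0.0161) and Cygb, the cytoglobin of stellate cells, by 0.40 ± 0.11 (0.0314). Cygb did not pass without any of 7 single livers (controls 3, 5, 6 and 7 and knockouts 4, 5 and 6, limma adjusted p 0.0526 to 0.068), nor without the 3, the 2 or all 5 arrays named above (0.0605, 0.0748 and 0.138), and Adamtsl2 did not without all 5 (0.106). Of the 16 genes 7 had a positive change.

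Of 30 other collagens and matrix proteins 5 rose (16.7%) and 1 fell (3.33%), with a median of 0.11. Nid1, nidogen 1, which links laminin to type IV collagen, ranged from 6.64 to 7.15 in control and from 7.28 to 8.06 in knockout livers, and Col12a1, a fibril-associated collagen, from 4.34 to 4.89 and from 5.17 to 5.80. For neither did the genotypes overlap, and they rose by 0.91 ± 0.11 (limma adjusted p = 5.77e-06) and 0.84 ± 0.10 (limma adjusted p = 6.61e-06). The laminin chain Lama2 rose by 0.34 ± 0.08 (limma adjusted p = 0.0101, and 0.0867 without the 5 arrays named above). Fn1, fibronectin, which hepatocytes secrete into plasma and mesenchymal cells into the matrix, fell by 0.46 ± 0.08 (limma adjusted p = 0.000423), with 7 knockout livers below every control.

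Among 22 genes of collagen processing and matrix turnover 3 rose (13.6%) and 1 fell (4.55%), with a median of 0.15. Bmp1 encodes the proteinase that removes the C-terminal propeptide of fibrillar procollagens. It fell from a mean of 9.56 ± 0.14 (SD, n = 8) in control to 8.52 ± 0.13 (SD, n = 8) in knockout livers, a change of -1.03 ± 0.07 (SE; limma adjusted p = 3.99e-09) with no overlap. P4ha2, a collagen prolyl hydroxylase subunit, rose by 0.37 ± 0.08 (limma adjusted p = 0.00477), Plau, the urokinase, by 0.26 ± 0.07 (0.0199) and Mmp12, macrophage elastase, by 0.45 ± 0.12 (0.0242). Plau and Mmp12 were dim, at percentiles 24.3 and 27.6 of mean level among all genes. Mmp12 did not pass without control 4 (limma adjusted p = 0.0514) or knockout 2 (0.0566). Without the 5 arrays named above P4ha2 (limma adjusted p = 0.114), Plau (0.163) and Mmp12 (0.268) did not pass, and neither Plau (0.06 and 0.0589) nor Mmp12 (0.0785 and 0.0683) passed without the 3 with adipocyte or the 2 with muscle transcripts.

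Of 23 TGF-beta and PDGF signalling genes 4 rose (17.4%) and none fell, with a median of 0.11. These were the PDGF receptor ligands Pdgfc (0.63 ± 0.08 SE, limma adjusted p = 1.36e-05) and Pdgfa (0.32 ± 0.07, 0.0033), the BMP and TGF-beta target Id1 (0.77 ± 0.14, 0.0011) and the YAP target Ccn1 (0.43 ± 0.10, 0.00936). Id1 did not overlap between genotypes, at 5.87 to 6.36 in control and 6.45 to 7.75 in knockout livers. With the mean of all its probe sets in place of the brightest, Pdgfa differed by 0.16 (limma adjusted p = 0.196), and it did not pass without the 5 arrays named above (0.28, 0.127).

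Markers of other cells that express matrix genes were measured beside these results, and none was at 0 (the lowest linear intensity in the table was 2.09). Of 10 vascular smooth muscle genes, which include Acta2 and Des, none passed the test, and their summed linear intensity was 621 to 1065 in control and 651 to 1076 in knockout livers. The highest sum of each genotype was on an array with skeletal muscle transcripts, and without these the ranges were 621 to 770 and 651 to 858. The smooth muscle kinase Mylk differed by 0.14 ± 0.07 (limma adjusted p = 0.355). Of 12 mesothelial and adventitial fibroblast genes 2 rose (16.7%). These were Dpt (dermatopontin, 1.17 ± 0.21 SE, limma adjusted p = 0.000598) and Cd34 (0.57 ± 0.11, 0.00209). The summed level of the 12, which includes these 2, was 430 to 585 in control and 521 to 742 in knockout livers. The median change of the 12 was 0.05. Among 7 cholangiocyte genes Krt23, a keratin, rose by 1.45 ± 0.12 (limma adjusted p = 7.43e-08) and Epcam by 0.31 ± 0.08 (0.0156, and 0.0982 without the 5 arrays named above). Epcam was dim, at percentile 26.5 of mean level among all genes. The summed level of these 7 genes was 269 to 344 in control and 348 to 438 in knockout livers, without overlap. The sum includes Krt23, which did not overlap by itself, and the median change of the 7 was 0.11. The sums of control 1 (344) and knockout 1 (348) were close, and Krt23 stood at 4.90 and 6.05 in these livers. With Krt23 taken out of the sums, knockout 1 lay below control 1, so the genotypes overlapped. The part of these cell types in the matrix gene changes was not tested.

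In the remaining marker lists few genes passed. None of 11 endothelial, 7 hepatocyte, 9 lymphocyte and neutrophil and 4 exocrine pancreas genes did. The endothelial genes Clec4g and Ptprb differed by -0.06 ± 0.12 and -0.14 ± 0.09, the T cell gene Cd3e by 0.04 ± 0.10 and the pancreatic gene Cpa1 by 0.02 ± 0.11 (SE). Of 13 Kupffer cell and macrophage genes Gpnmb, a glycoprotein of lipid-laden macrophages, rose by 0.32 ± 0.10 (limma adjusted p = 0.0449), a call lost without any of 11 single livers (limma adjusted p 0.06 to 0.1) and without the 3, the 2 or all 5 arrays named above (0.224, 0.0645 and 0.322). Of 2 erythroid genes Alas2 fell by 0.35 ± 0.08 (limma adjusted p = 0.00624, but 0.0618 without the 3 arrays with adipocyte transcripts and 0.118 without all 5). Of 7 adipocyte genes Cidea, a lipid droplet protein also made by fatty hepatocytes, rose by 2.78 ± 0.32 (limma adjusted p = 4.68e-06), and the others did not pass. Summed linear intensities overlapped between genotypes for endothelial genes (2408 to 3123 in control, 2092 to 3035 in knockout livers) and for macrophage genes (2097 to 3137 and 1858 to 3375).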

How the data were processed

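Total RNA of 16 livers (8 per genotype, grouped by the genotype label) was hybridised to Affymetrix arrays after 100 ng was amplified, per the labels' protocols. The authors deposited 1 linear intensity per probe set and array. The submitters' processing notes name Affymetrix Expression Console, without a version. The summary and normalization method is not given in the sources used here. Array medians were 38.9 to 43.5, and the number of arrays limits the precision.

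Of 35556 probe sets, 21456 had 1 gene symbol in GEO's platform annotation, 2376 had several and 11724 were not listed. Of those with 1 symbol, 21277 matched RefSeq GRCm38.p6 and 2 symbols were updated. Intensities were log2 transformed with no pseudocount, background correction or floor, and the brightest probe set was kept for 1343 genes with several, which left 19237 genes. They were fitted by genotype with limma 3.58.1 (lmFit, eBayes) in R 4.3.3, 2-sided, with Benjamini-Hochberg adjustment over all of them.

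The genes, gene lists and tests were chosen with earlier results of these data known. All 45 measured genes are named. Of each other list, up to 4 changed genes with the smallest p are named, or 1 or 2 of the brightest where none changed. Skeletal muscle and further adipocyte genes were chosen after the values were seen. On simulated data (19237 genes) changes of 0.3, 0.5 and 1 log2 units were given to 67, 67 and 66 of them. The fit recovered 29.9%, 83.6% and 98.5% of these changes, and 5.37% of its 149 calls were false. The livers gave 1673 calls, and recovery with that many changed genes was not tested. Alternatives were the normalization, filters, probe set rule, variance model, array weights, a size threshold, replicate numbers as a block, and arrays left out.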

Additional observations from a re-analysis of the deposited data

Results flagged for a closer look

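In some genes 1 liver stood far from the other 7 of its genotype by Dixon's ratio of gap to range (critical value 0.526). Of 156 groups of livers tested 12 did so, and of the 90 groups of stellate and matrix genes 6, where chance gives about 1 in 20. Among those genes, Des stood at 8.94 in control 4 (next 5.87) and at 8.56 in knockout 5 (next 6.10), the arrays with skeletal muscle transcripts. Knockout 8 was low for Hgf at 6.34 (next 6.92) and high for Bgn at 10.35 (next 9.92) and for Loxl1 at 6.36 (next 5.79). Tgfb3 was at 5.69 in knockout 5 (next 5.43), and its highest control value was on the other array with skeletal muscle transcripts, control 4 (5.76, next 5.34).

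Knockout 8 was also apart for Adamtsl2, at 7.05 (next 6.34), and for the endothelial phosphatase Ptprb, at 8.01 (next 8.56). Pdgfc was at 7.07 in knockout 5 (next 7.53), and Pdgfa at 7.03 in knockout 3 (next 7.37). Cidea was at 6.41 in control 5 (next 5.16), an array with adipocyte transcripts. The pancreatic gene Cpa1 was at 4.49 in knockout 4 (next 5.04).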

How the results depend on the processing

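Of 20 stellate and matrix genes that changed, 10 (Reln, Vim, Pdgfrb, Thbs1, Tgfbi, Col6a3, Dcn, Lum, Bgn and Fbln1) passed at an adjusted p under 0.05 in each of the 27 alternatives that tested them, the size threshold aside. The other 10 were lost in at least 1. Tgfb2, Thbs1, Lum and Loxl1 lay below the 50th percentile of level, so the filter at that level did not test them. Leaving out single livers gave 878 to 1154 genes higher and 527 to 697 lower in knockout livers (1057 and 616 over all livers). Median centring gave 761 and 663 and quantile normalization 1035 and 817, so that 53.4% and 55.9% of calls were higher against 63.2%. With single livers left out, 14 to 21 members were higher and 1 lower. By role it gave 6 to 8 activation genes, 1 to 4 collagen chains, 4 proteoglycans and 2 to 4 cross-linking and protease genes, and an Nr5a2 change of -0.95 to -0.81. Requiring 1.5-fold left 257 genes higher and 164 lower, and 3 members higher and 0 lower. Without the 5 arrays holding muscle or adipocyte transcripts, fewer livers were tested and 586 genes were higher and 307 lower, with 0 members lower (0 of the identity group), 1 collagen chain and 1 cross-linking or protease gene higher. The collagen chains counted 5 with replicate numbers as a block, 5 above the 50th percentile of level, 1 after quantile normalization and 1 without the muscle arrays, against 3, and the cross-linking group 0 without the adipocyte arrays. The cause of these moves was not tested. The replicate numbers did not pair the livers (correlations of -0.26 to 0.23), and with them as a block the 20 genes passed and Col1a2 (limma adjusted p = 0.0302) and Col14a1 (0.0203) were added. Median centring took Pdgfra, Sparc, Col4a2 and Timp2 from the calls, and quantile normalization took Pdgfra, Col3a1 and Col4a2.

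Signs turned in genes with changes near 0. Median centring gave Des -0.0124, Col18a1 -0.0143 and Cpa1 -0.00642, and quantile normalization gave Alb 0.0178. Without the muscle arrays the values were 0.0037 for Hand2, -0.0114 for Col6a2, -0.0237 for Col18a1, -0.0239 for Cd3e and -0.014 for Cpa1. Without the adipocyte arrays Des was -0.047, and without all 5 Hand2 was 0.015, Col18a1 -0.0451 and Cpa1 -0.0426. Leaving out single livers took Hand2 from -0.0353 to 0.0093, Des from -0.33 to 0.42, Col6a2 from -0.0112 to 0.0979, Col18a1 from -0.0169 to 0.043, Lox from -0.00138 to 0.12, Alb from -0.0173 to 0.0146, Ttr from -0.0348 to 0.0161, Clec4g from -0.12 to 0.0363, Cd3e from -0.0123 to 0.0755 and Cpa1 from -0.0288 to 0.11.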
